A study of Caenorhabditis elegans with 2 samples.

Results

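Aminoacyl-tRNA synthetase genes were taken as the protein-coding genes of Caenorhabditis elegans named by an amino acid letter, the letters ars, a hyphen and a number in the Ensembl annotation of assembly WBcel235. There were 32 such genes of 19973 nuclear protein-coding genes. Of these, 20 carry the suffix 1, 11 carry the suffix 2, and 1, fars-3, carries the suffix 3. The genes were chosen by name and not by a measured value, but earlier results of these data were known when the choice was made.

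Binding of a GFP-tagged copy of TBX-11, a DNA-binding protein of the T-box family, was mapped by chromatin immunoprecipitation and sequencing (ChIP-seq) in whole early embryos, in 2 biological replicates of 1 group. Both replicates were strain OP368 embryos labelled as 1 hour old and collected by egg bleaching. They carried the transgene wgIs368, a tbx-11 copy on a trimmed fosmid joined to TY1, EGFP and 3xFLAG tags, together with the rescue gene unc-119(+) in the mutant unc-119(tm4063). The chromatin was sonicated. Per the sample description the pull-down used an anti-GFP antibody, whereas tbx-11 stands in the antibody field. Every embryo carried the same alleles and no mock pull-down or untagged strain was analysed here, so the design holds no contrast between conditions. The protein mapped is the fosmid copy of 1 strain, and peaks of whole embryos do not show in which cells a site was bound. Peak lists hold no expression values, so the labelled stage and tissue could not be checked against marker genes.

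Aminoacyl-tRNA synthetases join each amino acid to its transfer RNAs and thereby set the reading of the genetic code. Animal cells need a set of them in the cytosol and a set in mitochondria, where a separate genome is translated, and both sets are encoded in the nucleus. Some enzymes, such as those for glycine and lysine in many animals, are made from 1 gene for both places.

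Each peak has a deposited signal, the authors' value of its strength. No source used here gives the scale of this signal, so it was ranked within a list and not compared in size between lists. The deposited score, up to 1000, expresses how reproducibly a peak ranked in a pair of analyses. A gene was counted as having a promoter summit where the highest point of a peak lay from 1000 bp upstream to 500 bp downstream of its annotated start. Peaks of the 4 thresholded lists all had a score of at least 830, and the 4 ranked lists also hold weaker peaks, called candidates here. The main list, the conservative thresholded list of both replicates, held 882 peaks, against 1042 in the other pooled list, 561 in replicate 1 and 467 in replicate 2. The pooled ranked list that holds every main-list peak is called conservative here. Its deposited name does not say so. Depth is unknown for both libraries, since peak lists hold no numbers of reads. No test over samples is possible with 1 group, and all values are descriptions. Intervals are Clopper-Pearson 95% intervals and cover counting error only.

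The only thresholded peak in a synthetase promoter lies between the start of ears-2 and that of its neighbour. That stretch is shown first, and under it, for comparison, stand the bases around the summits of the next strongest candidates, those of kars-1 and yars-2, which did not pass the threshold. All are from the RefSeq sequence of WBcel235, the same assembly as ce11, on the strand of the gene, which is the minus strand in each case. The ears-2 stretch is chrIV:390469-390559, the kars-1 stretch chrII:7072678-7072768 and the yars-2 stretch chrIV:4712659-4712749. Capitals mark the word CGCGCA, read on the opposite strand.
ears-2: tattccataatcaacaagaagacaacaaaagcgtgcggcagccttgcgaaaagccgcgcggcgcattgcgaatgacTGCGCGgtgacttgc
kars-1: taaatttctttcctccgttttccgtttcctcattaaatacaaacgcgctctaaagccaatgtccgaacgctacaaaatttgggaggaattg
yars-2: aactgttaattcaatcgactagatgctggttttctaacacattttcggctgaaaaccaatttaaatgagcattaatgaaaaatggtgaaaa
The ears-2 stretch is 91 bases long with a GC content of 53.8%, and its peak summit is base 71 counted from the 5′ end. The kars-1 and yars-2 stretches have a GC content of 39.6% and 30.8%, with the summit at base 46 of each. These stretches are centred on the summit, whereas that of ears-2 is the gap between the starts, so their GC contents are not alike in kind. In 300 bases centred on the summit, GC content was 38.3% at ears-2, 29.3% at kars-1 and 36.0% at yars-2. The median of such windows over main-list peaks was 43.3%.

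Among the synthetase genes, ears-2 alone had a promoter summit in the main list, which is 1 of 32 or 3.12% (0.0791 to 16.2%), against 489 of all 19973 protein-coding genes or 2.45%. A share this close to the background is no result about synthetase genes as a set. The same gene was the only one called in the other pooled list, where 2.75% of all genes were called, in replicate 1, where 1.53% were, and in replicate 2, where 1.21% were. Both replicates called 0.876% of all genes. The remaining 31 synthetase genes had no promoter summit in any thresholded list.

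By suffix, 0 of 20 genes with suffix 1 had a promoter summit, which allows a share of up to 16.8%, against 1 of 11 genes with suffix 2, or 9.09% (0.23 to 41.3%). These intervals overlap, so the numbers do not separate the suffixes. The suffix stands for the compartment only in part. RefSeq product names place 10 of the synthetases in the cytosol and 4 in mitochondria and name no compartment for 18. They go against the suffix for both alanine enzymes, since they call aars-1 mitochondrial and aars-2 cytosolic. Counted by product name, 0 of 10 cytosolic enzymes and 1 of 4 mitochondrial enzymes, again ears-2, had a promoter summit.

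**Figure D1:**
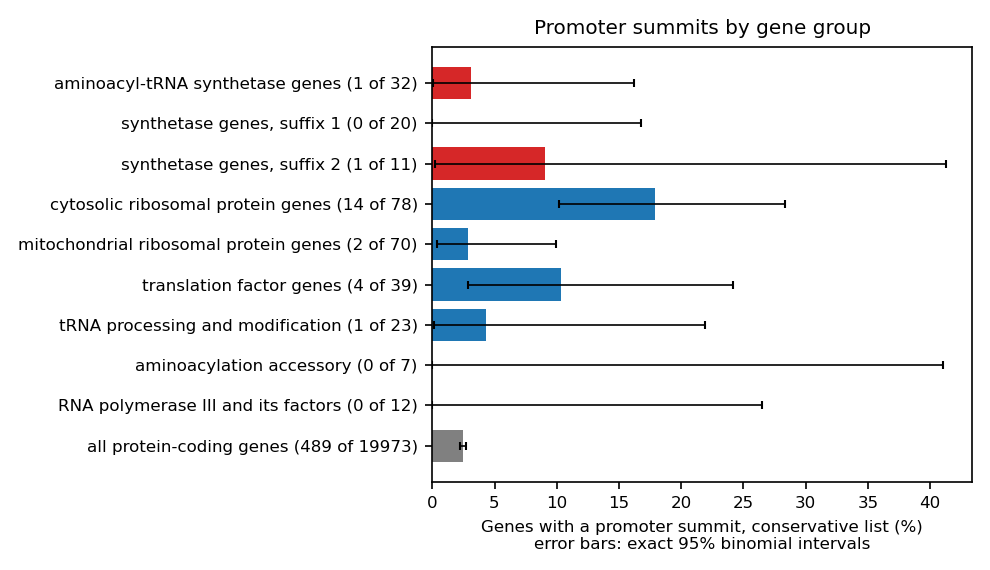
Share of genes with a promoter summit in the main list, in percent, for the synthetase genes and their suffixes (red), for other gene groups of protein synthesis and transfer RNA (blue) and for all protein-coding genes (grey), with exact 95% intervals as error bars. The synthetase bar, 1 of 32 genes, lies beside the 2.45% of all genes, and its interval reaches 16.2%.

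ears-2 (WBGene00001338, chromosome IV, 388686 to 390468, minus strand) encodes, per its RefSeq product name, the nondiscriminating mitochondrial glutamyl-tRNA synthetase. In bacteria and in mammalian mitochondria, an enzyme of this kind puts glutamate on the transfer RNAs of both glutamate and glutamine, and an amidotransferase then turns the glutamate on the glutamine transfer RNA into glutamine. The peak spanned 390376 to 390589 on chromosome IV, with the summit at 390489, 21 bp upstream of the annotated start. The pooled signal at ears-2 was 346, and it was 185 in replicate 1 and 164 in replicate 2, each with the highest score of 1000. Within their lists these were rank 47 of 882, rank 66 of 561 and rank 38 of 467, so the peak stood near the top of both replicates. The summits of the replicates lay 3 bp apart, the smallest distance among the 15 synthetase genes with a candidate in both.

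Many of the strongest peaks of these lists lie at genes of small RNAs, but the ears-2 peak does not. The nearest annotated small RNA gene, a snoRNA gene, was 16886 bp from the summit. Of the 510 main-list peaks with no small RNA gene within 100 bp of the summit, the ears-2 peak ranked 5 by signal, and it ranked 4 of the 266 of these that lie in a promoter window. Its signal was 3.65 times their median of 94.8. In replicate 1 it was rank 19 of 277 peaks with no small RNA gene and rank 5 of the 155 in a promoter window. In replicate 2 these ranks were 5 of 196 and 4 of 101. The peak was 214 bp wide against a median of 330 bp over the main list. This is not particular to ears-2, since the main-list peak inside fars-1, at 6212767 to 6212922 with a signal of 261, was narrower. In replicate 1 the width of the ears-2 peak was 129 bp against a median of 320 bp, and in replicate 2 it was 118 bp against 270 bp.

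The promoter of ears-2 is shared. The gene uncp-18 (WBGene00020298), whose RefSeq product is Syntaxin-binding protein 1, starts 92 bp away on the plus strand and runs the other way. The summit lay 71 bp upstream of its start, so the peak belongs to both promoters and cannot be given to either. Opposite starts at most 100 bp apart occurred at 1 of 32 synthetase genes (3.12%), against 108 of all genes (0.541%). Of the 54 pairs of such starts in the genome, 5 had a main-list summit in a promoter window (9.26%). The ears-2 pair had the highest signal of the 5, and the strongest candidate of the others reached 133 at uba-5 and clec-53. Weaker candidates flanked the ears-2 peak, with signals of 30.4 at 677 bp and 34.4 at 1236 bp into ears-2 and of 38.4 at 1390 bp upstream. None of these was in a thresholded list.

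**Figure D2:**
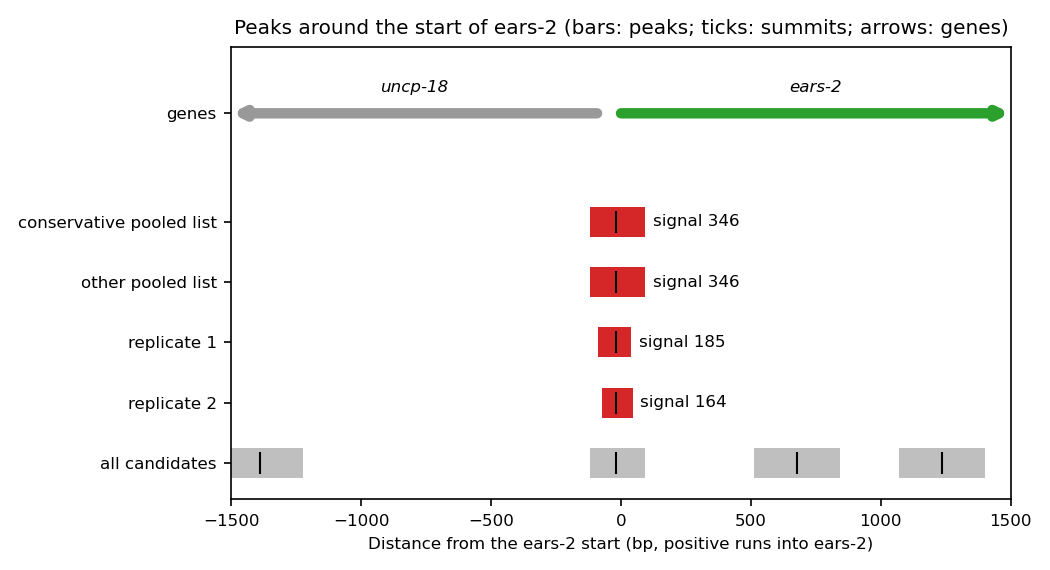
Peaks around the start of ears-2, by distance from that start in bp, with positive distances running into ears-2. Red bars are thresholded peaks, labelled with their signal, grey bars are the peaks of the conservative ranked list, ticks are summits and arrows are genes. All 4 thresholded peaks cover the 91 bases between ears-2 and uncp-18 in part or in full, and the flanking candidates were not in any thresholded list.

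Most synthetase promoters held a candidate in the ranked lists, which also hold thresholded peaks such as that of ears-2. Without ears-2, 27 of 31 synthetase genes (87.1%) had a candidate in the conservative ranked list, and 0 of these candidates reached a score of 830. In the conservative ranked list, 28 of 32 synthetase genes (87.5%) had at least 1, against 67.9% of all genes, and their strongest candidates had a median signal of 27.8, against 31.7 over all genes with a candidate. Of the 28, 11 were above the median of all genes and ears-2 alone was among the highest 10% of all genes with a candidate. Without ears-2 the signals ran between 14.6 and 52.9. The score was under 100 for 19 of the 28 in this list, against 9018 of 13552 over all genes with a candidate. In the other pooled ranked list it was under 100 for 13 of 29, against 7493 of 14833. The share with a candidate was 18 of 20 for suffix 1 and 9 of 11 for suffix 2, with medians of 28.7 and 28.3. The share was 90.6% against 74.3% of all genes in the other pooled list, 71.9% against 51.9% in replicate 1 and 65.6% against 51.7% in replicate 2. The medians, at 22.8 against 22.4 in replicate 1 and 16.6 against 17.8 in replicate 2, were close to those of all genes.

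**Figure D3:**
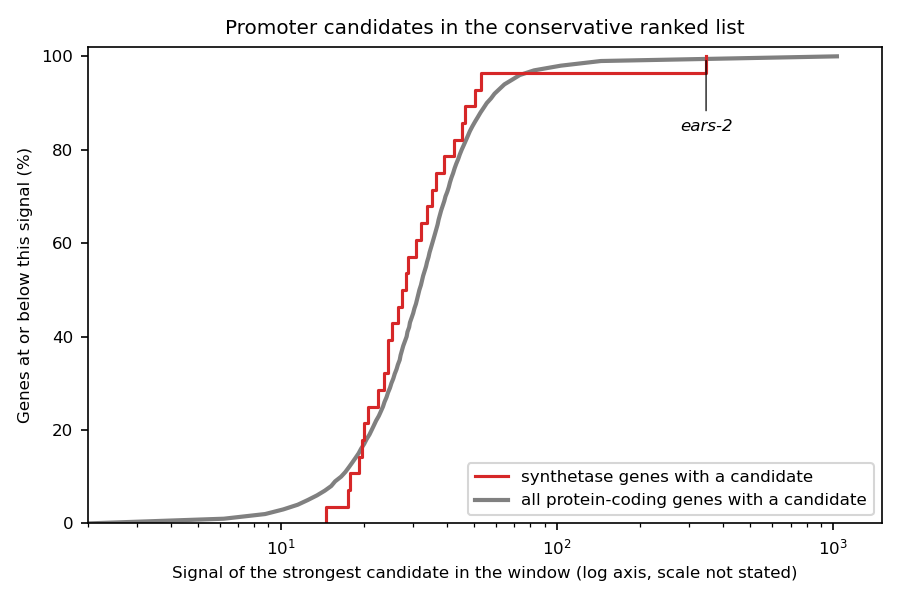
Cumulative share of genes, in percent, by the signal of the strongest candidate in the promoter window of the conservative ranked list, on a log axis, for the 28 synthetase genes with a candidate (red) and all protein-coding genes with one (grey). Most of the red curve lies to the left of the grey curve, and ears-2 at 346 stands apart from the next synthetase gene at 52.9.

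After ears-2, the strongest candidates were those of kars-1, yars-2 and cars-1. At kars-1 (WBGene00002238), the lysine enzyme, the signal was 52.9 in the conservative ranked list, 35.8 in replicate 1 and 24.2 in replicate 2. The score was 492 in the conservative ranked list and 362 in the other pooled ranked list, and 88.1% of genes with a candidate in the conservative list had a weaker one. Its summit lay 308 bp upstream of the kars-1 start. At yars-2 (WBGene00006968), named for tyrosine, the signal was 50.3, with 26.1 in replicate 1 and 25.5 in replicate 2, and the summit lay 80 bp upstream. Its score was 335 in the conservative and 423 in the other pooled ranked list. At cars-1 (WBGene00000800), the cytosolic cysteine enzyme, the signal was 46.4, with 31.4 in replicate 1 and 21.4 in replicate 2, and the summit lay 65 bp upstream. For these 3 genes the best summits of the replicates were between 126 and 135 bp apart. None reached the score of 830.

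The next 7 genes had scores of 168 or less in the conservative ranked list and of 312 or less in the other pooled ranked list. Signals in the conservative ranked list were 45.1 at hars-1 (histidine), 42.4 at tars-1 (threonine) and 39.0 at yars-1 (tyrosine). They were 36.5 at iars-1 (isoleucine), 35.3 at gars-1 (glycine), 33.7 at rars-1 (arginine) and 32.1 at mars-1 (methionine). The replicates differed at hars-1, where replicate 1 alone had a candidate, of signal 26.2, and at iars-1, where replicate 2 alone had one, of signal 18.0. The candidate of gars-1 lay 25 bp upstream of its start, with 24.9 in replicate 1 and 16.6 in replicate 2 and summits 44 bp apart. The hars-1 candidate, 250 bp upstream, lay 211 bp from the start of T11G6.2. The tars-1 candidate, 493 bp upstream, lay 21 bp from the start of xpf-1. The rars-1 candidate, 972 bp upstream, lay 141 bp from the start of rpb-8. None of these is closest to the start of the synthetase gene. The yars-1 candidate, 876 bp upstream, lay inside the gene Y105E8A.20. In the rars-1 window the best summits of the replicates were 972 bp apart.

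No candidate lay in the windows of dars-1, dars-2, rars-2 and sars-1 in the conservative ranked list. For the aspartate enzymes dars-1 and dars-2 there was none in any ranked list. For sars-1, a serine enzyme, the strongest candidate had a signal of 36.9 in the other pooled ranked list and of 34.5 in replicate 1, and replicate 2 had none. For rars-2, an arginine enzyme, there was 1 of signal 17.0 in replicate 2 alone. The candidates of the other 17 synthetase genes had signals between 14.6 and 30.7.

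**Figure D4:**
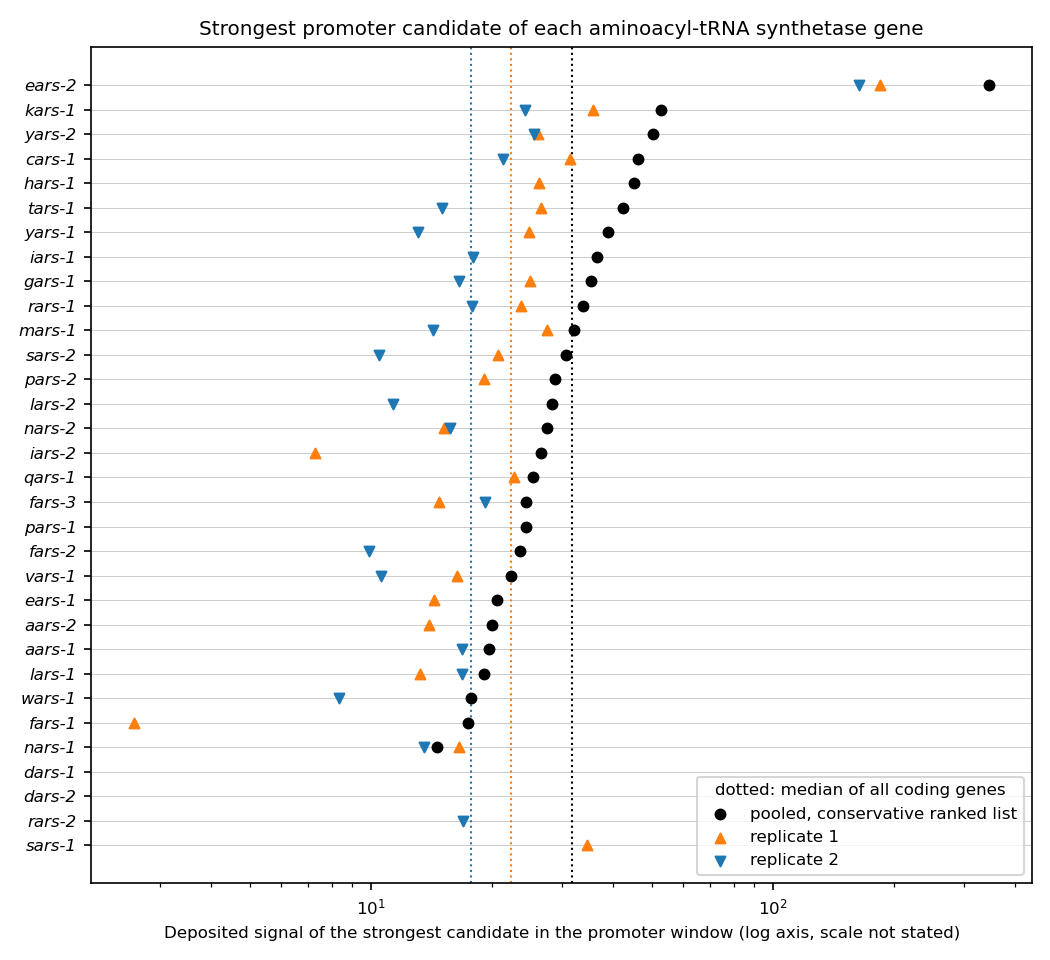
Signal of the strongest candidate in the promoter window of each synthetase gene, on a log axis, in the conservative ranked list (circles), replicate 1 (upward triangles) and replicate 2 (downward triangles), with dotted lines at the medians of all protein-coding genes. The values of ears-2, at 346, 185 and 164, lie to the right of every other gene, and a missing symbol means no candidate in that list.

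Both replicates had a candidate in the window of 15 of the 32 synthetase genes, replicate 1 alone in 8, replicate 2 alone in 6 and neither in 3. Over all 19973 genes, both had one in 6896, replicate 1 alone in 3463, replicate 2 alone in 3433 and neither in 6181. The best summits lay within 200 bp of each other in 10 of the 15 (66.7%), against 54.3% of the 6896 protein-coding genes with a candidate in both. Spearman's rho of the signal between replicates was 0.432 over the 15 genes, 0.301 over 14 without ears-2 and 0.343 over all genes. These are correlations across genes of the same pair of libraries and the same control alignments, and genes are not independent replicates.

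The positions show how far a promoter candidate can be tied to a synthetase gene. Of the 28 strongest candidates, 22 lay upstream and 6 downstream of the start, 9 lay within 100 bp of it, and the median distance was 308 bp. For 19 of them the synthetase start was the nearest coding start, and for 9 another gene started closer. The window of another coding gene also held 12 of the 28. None had a small RNA gene within 100 bp. The window reaches 1000 bp upstream but 500 bp downstream, so its shape alone favours upstream summits. These position counts were not made over all genes, so they show no trait of synthetase candidates. A start of another gene on the opposite strand within 1000 bp upstream was found for 11 of 32 synthetase genes (34.4%), against 17.7% of all genes, and the spacing ran between 92 bp at ears-2 and 852 bp at qars-1.

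**Figure D5:**
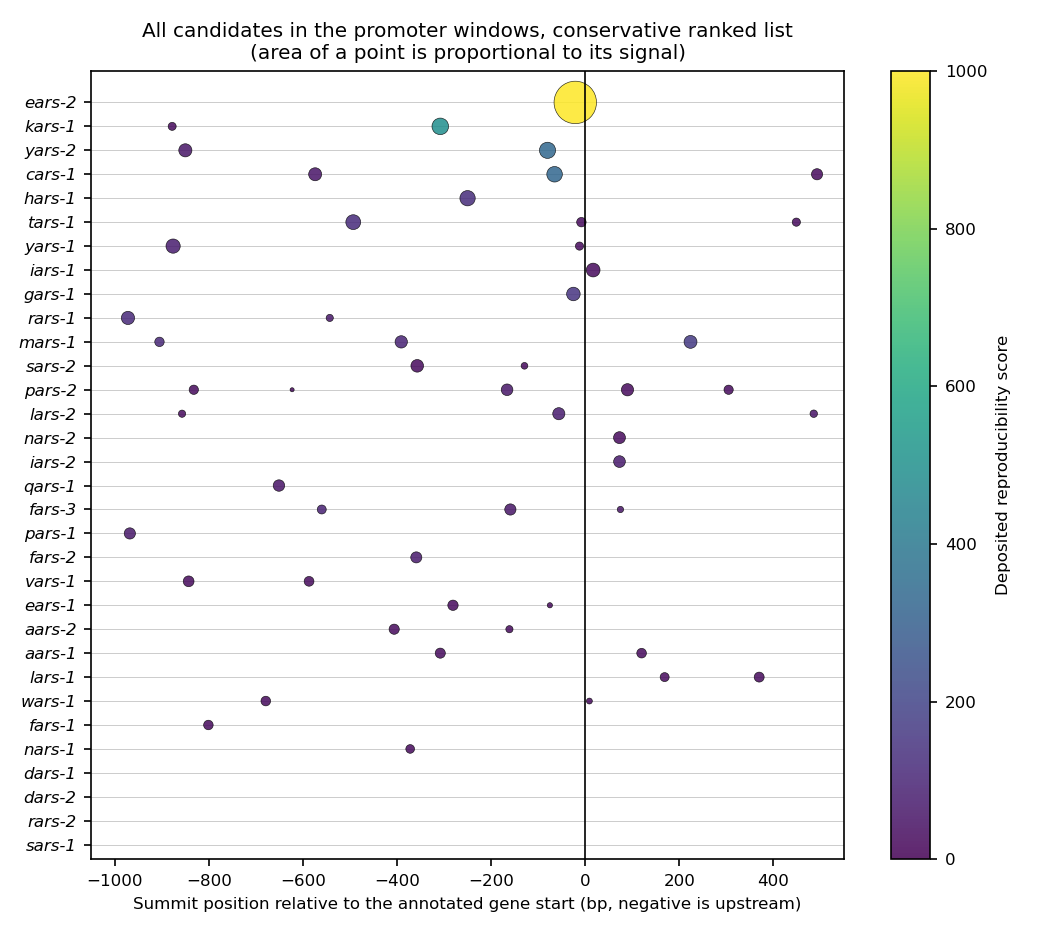
Every candidate in the promoter windows of the synthetase genes in the conservative ranked list, by summit position relative to the annotated start in bp. The area of a point is proportional to its signal and the colour gives the deposited score. The 53 summits are spread over the window, and of these the ears-2 point, 21 bp upstream, alone has a score of at least 830.

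Beyond promoters, 2 of 32 synthetase genes (6.25%) had a main-list summit inside the gene, against 326 of all genes (1.63%), and both are phenylalanine genes. In fars-1, on chromosome I, the peak at 6212767 to 6212922 lay in an intron, 1834 bp into the gene, with a signal of 261, and with 144 in replicate 1 and 116 in replicate 2. The snoRNA gene T08B2.13, the non-coding RNA gene T08B2.14 and a pseudogene lie within 100 bp of its summit. In fars-2, on chromosome V, the peak at 19904014 to 19904343 lay in an intron, 3255 bp into the gene, with no small RNA gene within 100 bp. Its signal was 68.9 and its score 897, and it was in the conservative list only, not in the other pooled list or in either replicate. A main-list peak lay in or within 5 kb of 3 of 32 synthetase genes (9.38%), against 10.7% of all genes, and the median distance to the nearest peak was 45724 bp, against 43865 bp.

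The letters of the promoters were searched on both strands in 300 bases, from 250 before to 50 after each start. GGTGTG, the core of the T-box site, was in 3 of 32 synthetase promoters (9.38%), those of aars-1, rars-2 and pars-2, against 7.6% of all coding promoters. It was not in the ears-2 promoter, nor in the 300 bases centred on the ears-2 summit, where 12.5% of main-list peaks hold it. CGCGCA, a word taken from earlier work on these same peaks, was in 4 of 32 (12.5%), those of ears-2, sars-2, aars-2 and dars-1, against 6.08% of all promoters. It was within 17.1% of the 300-base windows of all main-list peaks and 22.5% of those with no small RNA gene. In the ears-2 stretch printed above it occupies bases 77 to 82, close to the summit at base 71. Since CGCGCA was taken from these same peaks, its counts and its place at ears-2 are no support for it. The E-box CACGTG was in the hars-1 promoter alone (3.12%, against 5.82%), and the GC box GGGCGG in those of tars-1 and aars-2 (6.25%, against 7.83%). The B box, an element inside transfer RNA genes, was in 0 of 32, against 0.165%. Each motif was counted on its own, and an occurrence that overlaps another motif counts for both. The median GC content was 33.0% over synthetase promoters, 43.0% at ears-2 and 34.3% over all promoters. A match is a description of letters and not of binding, and a missing match says only that the letters are not in the window.

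Other genes that serve transfer RNAs and translation were counted by the same rule. Of 23 matched genes of transfer RNA processing and modification, 1 had a promoter summit in the main list (4.35%, against 2.45% of all genes), mtcu-2, the homologue of a mitochondrial transfer RNA modifying enzyme. Its signal was 162, with 106 in replicate 1 and 58.6 in replicate 2, and the summit lay 477 bp upstream. Of 7 matched accessory genes of aminoacylation and 12 genes of RNA polymerase III and its factors, the enzyme that transcribes transfer RNA genes, 0 had one. The 7 were secs-1, pstk-1, hpo-31, xpo-3, gcn-1, gcn-2 and atf-4. The names gata-1, gatb-1, gatc-1, sephs-1, selb-1 and aimp-1 found no gene, so the accessory count does not cover them. Cytosolic ribosomal protein genes had a summit in 14 of 78 (17.9%), led by rpl-3 at 209, rpl-35 at 184, rpl-20 at 159 and rpl-15 at 157. The count was 9 of 78 (11.5%) in replicate 1, 8 of 78 (10.3%) in replicate 2 and 5 of 78 (6.41%) in both. Among the 14, the rps-26 summit lay at a snoRNA gene and the rps-1 summit at a non-coding RNA gene. Translation factor genes had one in 4 of 39 (10.3%), eif-3.C at 222, eif-3.B at 98.2, eif-2Bgamma at 79.5, at an snRNA gene, and eif-3.I at 68.6. That count was 3 of 39 (7.69%) in replicate 1 and 1 of 39 (2.56%) in replicate 2 and in both, and eif-2Bgamma and eif-3.I had a summit in neither replicate. Mitochondrial ribosomal protein genes had one in 2 of 70 (2.86%), mrps-28 at 464 and mrpl-23 at 261, both at snoRNA genes, and the mrpl-23 summit is the peak inside fars-1. The synthetase share of 3.12% (0.0791 to 16.2%) has an interval that overlaps those of ribosomal protein genes (10.2 to 28.3%) and of translation factor genes (2.87 to 24.2%), and no test of these differences was made.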

How the data were processed

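TBX-11 binding was mapped in 2 replicates of 1 group. Per the deposited file descriptions, each replicate's peak list derives from its own alignments and the pooled lists from both, against the same control alignments, on ce11. Aligner, peak caller and versions are not given in the sources used here. Signal is the authors' peak strength, on an unstated scale. Score is a deposited value derived from the irreproducible discovery rate, higher where a peak ranks more reproducibly, and the summit offset is the authors' too. Columns of unnamed sub-analyses in the ranked lists were not used.

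Summits were assigned to nuclear Ensembl genes with Python 3.11.15, numpy 2.4.6, pandas 2.3.3 and scipy 1.17.1. Annotated starts of many worm genes are trans-splice sites. The search was run on simulated summits placed in the same windows that it uses. That checks the search only, and not the choice of windows, strands or starts. Motif windows were 300 bases. Gene lists were matched by symbol: 6 of 13 accessory, 4 of 27 processing and 1 of 13 RNA polymerase III names found no gene. Named were all synthetase genes with a promoter summit, the 10 next by candidate signal and those without candidate. Up to 4 genes per list, the matched accessory genes and genes sharing a summit were named too. Named after their values were seen were uba-5, clec-53, rps-26, rps-1 and the genes with motifs, body peaks or the repeated word. Members and lists were chosen with earlier results of these data known. Alternatives were other lists, windows, starts, assignments and overlaps.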

Additional observations from a re-analysis of the deposited data

How the results depend on the processing

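The count of synthetase genes with a promoter summit stayed at 1, ears-2, in 12 of 13 alternatives: other lists, replicates, windows, starts, overlaps, peaks at or above the median signal, exclusion of small RNA genes, 4 genes added by RefSeq name, and a nearest start within 100 bp (0.325% of all genes), the last pair chosen after seeing the data. With each summit given to its nearest start within 5 kb the count was 2 over all synthetase genes and 2 for suffix 2, since the intron peak of fars-2 was added, against 3.53% of all genes. For suffix 1 it was 0 in all 12 alternatives run. Several alternatives could not have dropped ears-2, whose summit lay 21 bp from its start. Its signal of 346 also stood above the main-list median of 103. The other pooled list holds the same ears-2 peak, at the same position and signal. The percentage of all genes called was 1.28 for peaks at or above the median signal and 1.6 for a window of 500 bp upstream to 100 bp downstream, and it was between 1.21 and 1.53 when either replicate was left out. With that narrower window 45.2% of all genes and 22 of 32 synthetase genes had a candidate. Over the alternatives, candidates were found for 20 to 29 synthetase genes. The 20 (62.5%) were found with only candidates at or above the median signal, against 51.7% of all genes. The 29 (90.6%) were found in the other pooled ranked list, against 74.3%. No paired analysis was possible because there is only 1 group. The peak lists carry no read counts, so a missing peak is a peak not called at an unknown depth.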

Other observations

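Main-list peaks were also counted at the nuclear transfer RNA genes. These shares are of another kind of gene and are not set against the share of synthetase promoters. Of 612 nuclear transfer RNA genes, 244 (39.9%, 36.0 to 43.9%) had a main-list peak, and such peaks were found for each of the 20 amino acids. For glutamate, the amino acid of ears-2, 18 of 41 genes had one (43.9%, 28.5 to 60.3%), 17 in replicate 1 and 16 in replicate 2. For glutamine the count was 8 of 27 (29.6%, 13.8 to 50.2%). Over the amino acids the main-list share ran between 26.3% for tyrosine (5 of 19, 9.15 to 51.2%) and 61.5% for cysteine (8 of 13, 31.6 to 86.1%), with overlapping intervals. The order was not the same in each replicate. Tyrosine genes had a peak in 6 of 19 in replicate 1, against 4 of 20 for histidine, and in 4 of 19 in replicate 2, against 7 of 39 for serine. Alanine genes had 20 of 34 among main-list peaks, 13 in replicate 1 and 16 in replicate 2. These are nuclear genes, whereas a mitochondrial enzyme charges transfer RNAs of the mitochondrial genome.

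The word TTGCGAA was noticed in the ears-2 stretch, where it occurs at bases 44 to 50 and again at bases 66 to 72, the second of which holds the summit at base 71. It was counted after it was seen, so the counts are no support for it. At least 2 occurrences on either strand were found in 300 bases around 20 of 510 main-list summits with no small RNA gene (3.92%), in 234 of 87796 windows of ranked candidates (0.267%) and in 56 of 19973 coding promoters (0.28%). Among synthetase promoters, those of ears-2 and pars-1 held 2, and those of iars-1, aars-2 and cars-1 held 1. At least 1 was thus in 5 of 32 (15.6%), against 5.26% of all coding promoters and 13.3% of main-list summits with no small RNA gene.

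RefSeq products name 4 further synthetase genes that the naming rule misses. None had a promoter summit in the main list. Their strongest candidates had signals of 64.1 for K03B4.1 (seryl-tRNA synthetase, score 697), 50.5 for glp-4 (valine), 42.6 for Y105E8A.20 (methionine, mitochondrial) and 12.7 for prx-10. RefSeq names Y105E8A.20 mars-2, and it is the gene that holds the yars-1 candidate. The RefSeq products of prx-10 are peroxisome biogenesis factor 10 and a mitochondrial tryptophan enzyme.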
